A study of Mus musculus with 12 samples.

Results

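The genes described here are the circadian repressors Bhlhe40 and Bhlhe41 and 8 core clock genes, Per1, Per2, Per3, Cry1, Cry2, Clock, Arntl and Dbp. They were chosen by name. Each of the 10 was found as 1 probe set that carries its symbol alone, among 19938 genes with such a probe set and 35557 probe sets in all. Bhlhe40 and Bhlhe41 were singled out because their signal changed on these same arrays, so their values are given as a description with no test. The 8 core genes, called so here, are standard parts of the clock loop and its output gene Dbp. They were named without a threshold on their values. Earlier results of these data were known when the members and the gene lists below were chosen, so the choice was not blind to them. The 8 core genes were tested in a model of all 19938 genes. The question was whether they moved while the Bhlhe pair did.

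The study hybridised messenger RNA to Affymetrix Mouse Gene 1.0 ST arrays from Esrrb_R, a rescue clone of mouse embryonic stem cells derived from the AINV15 line. All arrays come from this 1 clone, in which an shRNA removes the cells' own Esrrb and a GFP-tagged, shRNA-immune Esrrb is made only with doxycycline (Dox), in serum with Lif. Day 0 cultures had 1 µg/ml Dox, and day 1, day 3 and day 5 cultures had been without Dox for that many days, with 3 biological replicates and 3 arrays at each of the 4 days. No array holds cells of the same age kept in Dox, so loss of Esrrb, removal of Dox and time in culture cannot be told apart. The cultures were on gelatin without feeders, although the line is kept on irradiated fibroblasts. The sources used here do not give the hour at which cultures were collected, and 1 time point in a day records no daily rhythm. In bulk RNA, fewer cells of a type and less RNA per cell cannot be told apart.

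The circadian clock is a feedback loop of transcription. Clock and Arntl (Bmal1) pair on E-boxes and switch on the Per and Cry genes, whose proteins then block the pair, and Bhlhe40 (Dec1) and Bhlhe41 (Dec2) are basic helix-loop-helix repressors that compete for the same E-boxes. A second loop acts on Arntl through nuclear receptors, Ror proteins as activators and Nr1d1 and Nr1d2 (Rev-erb) as repressors, while Dbp and its relatives carry the rhythm outward through D-boxes. Mouse embryonic stem cells are known to express clock genes without a running daily rhythm, which appears as they differentiate.

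The sequences below show where these elements lie in members whose signal moved. Promoter windows of 250 bases before to 50 bases after a start were taken from RefSeq (GRCm38.p6) for 8 of the 10 members, 12 windows in all. Bhlhe40 and Per2 were not analysed for sequence here. Both strands were searched, and no matches of different motifs overlapped. The E-box CACGTG stood in 1 window each of Bhlhe41, Per1 and Cry1, and in 7.15% of all 32851 windows. The related sequence CACGTT stood in windows of Cry1 and Cry2 (4.68% of all windows), the D-box TTATGTAA in that of Per3 (0.938%) and the Ror element TAGGTCA in 1 of the 2 windows of Arntl (2.61%). The Esrrb element TCAAGGTCA (0.423% of all windows) and the cyclic AMP element TGACGTCA (1.79%) matched in none of the 12. The stretches run from 20 bases before the first match to 20 after the last, with 11 on each side for Arntl, where the match lies in the transcript, and with matches in capitals. They are chr6:145865548-145865593 on the minus strand for Bhlhe41, chr11:69098763-69098808 on the plus strand for Per1, chr4:151044796-151044890 on the minus strand for Per3, chr10:85185089-85185153 on the minus strand for Cry1 and chr7:113207530-113207558 on the plus strand for Arntl. A match is a description of the sequence and not evidence of binding.
Bhlhe41: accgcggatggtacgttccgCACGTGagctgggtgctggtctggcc
Per1: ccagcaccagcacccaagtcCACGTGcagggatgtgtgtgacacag
Per3: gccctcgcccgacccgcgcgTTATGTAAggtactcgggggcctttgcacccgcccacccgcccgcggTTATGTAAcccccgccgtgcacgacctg
Cry1: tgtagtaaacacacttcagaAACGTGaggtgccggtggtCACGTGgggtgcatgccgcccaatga
Arntl: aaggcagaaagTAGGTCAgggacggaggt
The E-box began 153 bases before the start in Bhlhe41, 166 before it in Per1 and 60 before it in Cry1. Cry1 also had the reverse strand of CACGTT, 79 bases before its start. The 2 D-boxes of Per3 began 205 and 158 bases before its start, and the Ror element of Arntl began at base 31 of the transcript.

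The values are log2 signals after the Robust Multichip Average, running from 1.61 to 14.69 over all probe sets, with array medians between 6.92 and 7.05. Esrrb was 11.54 to 11.63 at day 0, 9.09 to 9.16 at day 1, 8.07 to 8.34 at day 3 and 8.13 to 8.28 at day 5, so every array matched its Dox label. Of 8 embryonic stem cell markers, 4 were called lower at day 1, 6 at day 3 and all 8 at day 5, with none higher against day 0, where 4.48%, 13.1% and 17.6% of all genes were lower. Their mean log2 signal per array was 10.76 to 10.86 at day 5, against 11.45 to 11.55 at day 0. At day 5 against day 0, Zfp42 changed by -1.60, Fgf4 by -1.12, Utf1 by -0.77, Pou5f1 by -0.49 and Nanog by -0.25 (adjusted p at most 0.0063, limma). Nanog was lowest at day 1, at 11.23 ± 0.07, against 12.03 ± 0.09 at day 0 (SD over 3 arrays). The part of this loss in the values of the clock genes was not tested. No array stood far from the others of its day, although estimated array weights ran from 0.542 (day 0 replicate 3) to 1.989 (day 1 replicate 1). In data simulated for all 19938 genes, 67 were given a change of 0.5 on the log2 scale. It was found in 82.1%, 68.7% and 79.1% of these at days 1, 3 and 5. Far fewer genes were changed there than were called in the data, so these rates do not carry over to the clock genes.

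Bhlhe40 was higher on each later day. Its log2 signal was 7.63, 7.86 and 7.75 at day 0 and 8.23, 8.19 and 8.33 at day 1. It was 9.10, 8.96 and 8.84 at day 3 and 9.60, 9.54 and 9.63 at day 5. No arrays of neighbouring days overlapped in this order. The day 5 mean of 9.59 ± 0.05 stood against 7.75 ± 0.12 at day 0 (SD, n = 3 each). This was a log2 change of 1.84, or 3.59-fold. The change was 0.50 at day 1 and 1.22 at day 3, so each interval between samplings added to it.

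Bhlhe41, the paralogue, peaked at day 3. Its log2 signal was 5.76, 6.22 and 5.94 at day 0 and 6.59, 6.69 and 6.26 at day 1. It was 7.93, 7.86 and 7.85 at day 3 and 6.05, 6.64 and 6.27 at day 5. The 3 day 3 arrays lay above all 9 others, while the ranges of day 5 and day 0 overlapped. Against day 0 the log2 changes were 0.54, 1.90 (3.74-fold) and 0.35 at days 1, 3 and 5. From day 3 to day 5 it was -1.56. The paralogues thus parted after day 3, with changes from day 3 to day 5 of 0.62 for Bhlhe40 and -1.56 for Bhlhe41.

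**Figure D1:**
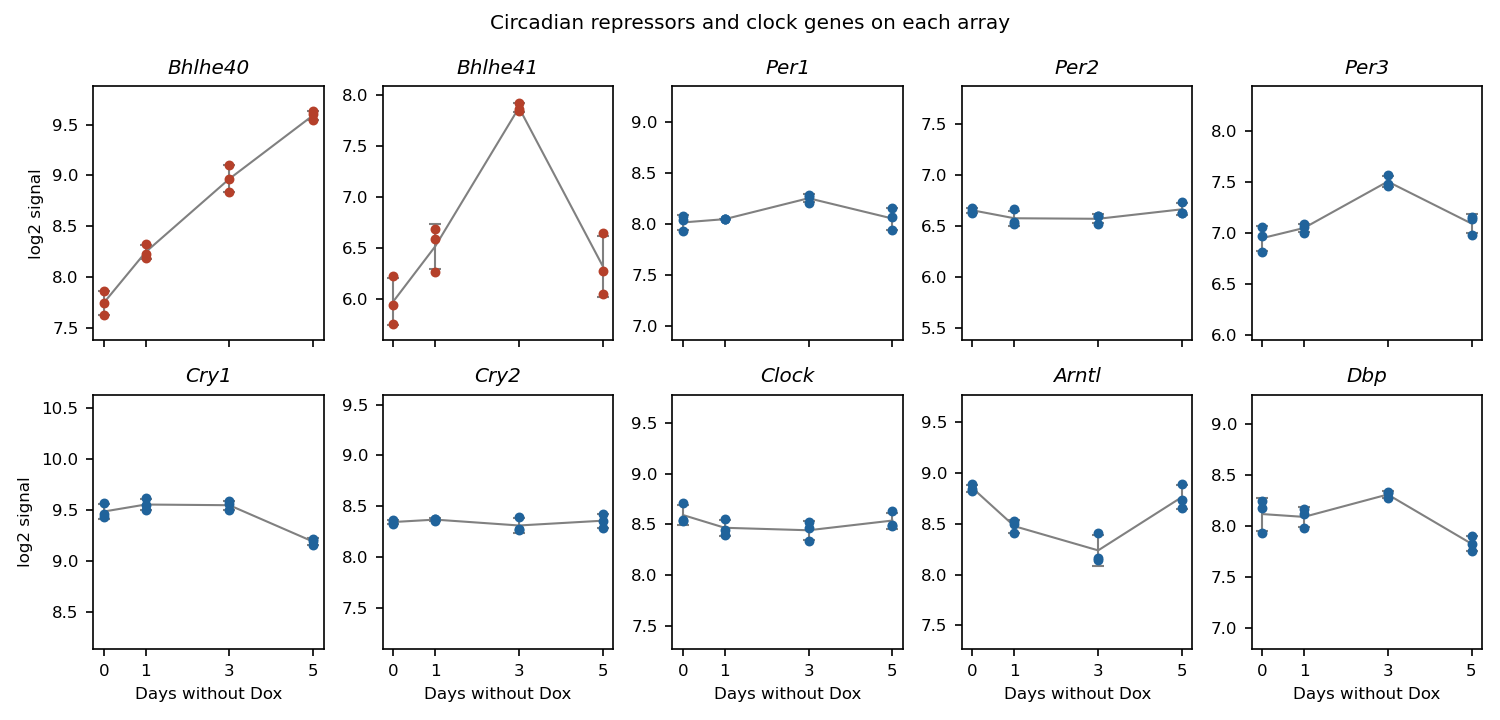
Log2 signal (y axis, each panel spanning the same 2.5 log2 units) of the 10 members on each array against days without Dox (x axis); points are arrays, lines join day means and bars are SD over 3 arrays. Bhlhe40 climbs to 9.54 to 9.63 at day 5, Bhlhe41 and Per3 peak at day 3, and Arntl is lowest at day 3. Per2, Cry2 and Clock passed no test.

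Among the Per genes, which encode the repressors that bind Cry proteins, Per3 showed the clearest change. Its log2 signal was 6.82, 6.97 and 7.06 at day 0 and 7.06, 7.09 and 7.0 at day 1. It was 7.47, 7.57 and 7.48 at day 3 and 6.98, 7.16 and 7.13 at day 5. The day 3 arrays lay above those of every other day. Per3 rose by 0.56 ± 0.07 (SE) at day 3 against day 0, or 1.47-fold (adjusted p = 7.2e-05, limma with Benjamini-Hochberg adjustment over all genes). It fell by 0.41 at day 5 against day 3 (adjusted p = 8.8e-04). At day 1 and day 5 its changes against day 0 were 0.10 and 0.14 and passed no test (adjusted p = 0.45 and 0.15).

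Per1 had a smaller peak on the same day. It was 8.08, 7.93 and 8.04 at day 0, 8.05 on all 3 arrays of day 1, 8.27, 8.21 and 8.29 at day 3 and 7.94, 8.16 and 8.07 at day 5. The day 3 arrays again lay above those of the other days, by a small margin. Per1 rose by 0.24 ± 0.06 (SE) at day 3 against day 0, or 1.18-fold (adjusted p = 0.014, limma). This call was lost without day 0 replicate 2 (change 0.20, adjusted p = 0.06) or without day 3 replicate 3 (0.22, adjusted p = 0.052). Its rise of 0.21 from day 1 to day 3 (adjusted p = 0.036) was lost without any 1 array of those days, with adjusted p between 0.054 and 0.11. Its fall of 0.20 from day 3 to day 5 (adjusted p = 0.036) was lost without any 1 of 7 arrays, day 1 replicates 1 and 2, all of day 3 and day 5 replicates 1 and 3, with adjusted p between 0.051 and 0.14.

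Per2 passed no test. Its 12 arrays lay between 6.52 and 6.73, and its changes against day 0 were -0.08, -0.08 and 0.01 at days 1, 3 and 5 (adjusted p = 0.46, 0.34 and 0.92, limma). The 95% intervals of these 3 changes reached from -0.21 to 0.13. Its day 3 arrays, at 6.52 to 6.60, lay below the 6.63 to 6.68 of day 0 and the 6.63 to 6.73 of day 5. Per3 and Per1 were thus called in the same comparisons and directions, higher at day 3 than at days 0 and 1 and lower at day 5 than at day 3, and Per2 in none. The difference between these genes was not tested.

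Of the cryptochromes, Cry1 fell late. It was 9.43, 9.57 and 9.46 at day 0, 9.62, 9.50 and 9.55 at day 1, 9.59, 9.56 and 9.50 at day 3 and 9.20, 9.22 and 9.15 at day 5. The day 5 arrays lay below all 9 others. Cry1 fell by 0.30 ± 0.06 (SE) at day 5 against day 0 (adjusted p = 0.0011) and by 0.36 at day 5 against day 3 (adjusted p = 4.7e-04, limma). Its changes of 0.07 at day 1 and 0.06 at day 3 against day 0 did not pass (adjusted p = 0.52 and 0.49). Cry2 lay between 8.27 and 8.43 on the 12 arrays, and its changes against day 0 of 0.02, -0.03 and 0.01 at days 1, 3 and 5 did not pass (time course adjusted p = 0.81). The 95% intervals of these Cry2 changes ran from -0.15 to 0.14.

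In the positive limb, Arntl fell first and came back. Its log2 signal was 8.89, 8.84 and 8.82 at day 0 and 8.52, 8.50 and 8.41 at day 1. It was 8.41, 8.14 and 8.16 at day 3 and 8.66, 8.89 and 8.74 at day 5. All arrays of days 1 and 3 lay below all arrays of days 0 and 5, and the ranges of day 5 and day 0 overlapped. Arntl fell by 0.37 ± 0.08 (SE) at day 1 (adjusted p = 0.0094) and by 0.61 at day 3 (1.53-fold lower, adjusted p = 8.1e-05, limma), both against day 0. The further change of -0.24 from day 1 to day 3 did not pass (adjusted p = 0.052). From day 3 to day 5 Arntl rose by 0.52 (adjusted p = 3.4e-04), and at day 5 its change of -0.09 against day 0 was not called (95% interval -0.26 to 0.09, adjusted p = 0.45).

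Clock, the partner of Arntl and a histone acetyltransferase, did not pass on any day. It lay between 8.34 and 8.71 on the 12 arrays. Its changes against day 0 were -0.13, -0.15 and -0.05 at days 1, 3 and 5 (adjusted p = 0.33, 0.16 and 0.63, limma), with 95% intervals from -0.31 to 0.10. Its 3 day 3 arrays, at 8.34 to 8.53, touched but did not overlap the 8.53 to 8.71 of day 0.

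Dbp, the D-box activator whose promoter is a known target of Clock and Arntl, was highest at day 3 and lowest at day 5. It was 7.94, 8.24 and 8.18 at day 0, 8.17, 7.98 and 8.12 at day 1, 8.33, 8.28 and 8.32 at day 3 and 7.75, 7.83 and 7.90 at day 5. The day 5 arrays lay below all others, next to day 0 replicate 1 at 7.94. Dbp fell by 0.48 at day 5 against day 3 (adjusted p = 6.3e-04) and by 0.29 ± 0.08 (SE) at day 5 against day 0 (adjusted p = 0.012, limma). Without day 0 replicate 2 the second of these was -0.23 and no longer called (adjusted p = 0.054). The change of 0.19 at day 3 against day 0 was not called (adjusted p = 0.10), but passed without the same array, at 0.25 (adjusted p = 0.047).

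**Figure D2:**
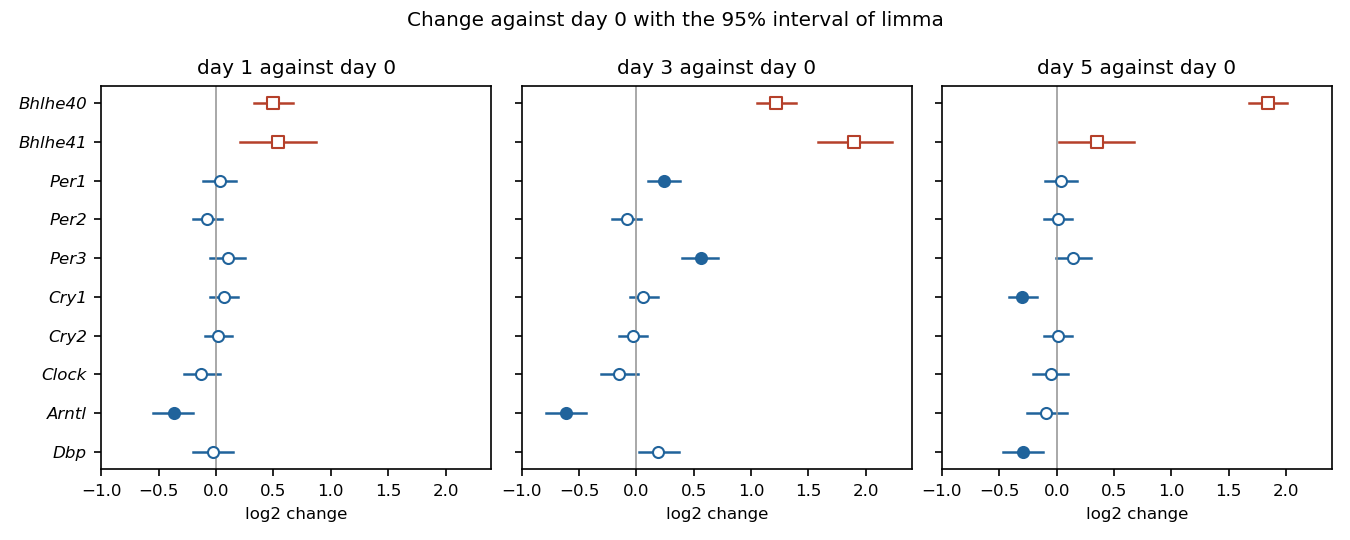
Log2 change of each member at days 1, 3 and 5 against day 0 (x axis), with the 95% interval of limma over 3 arrays a day. Filled circles passed an adjusted p of 0.05 and open circles did not. Open squares are Bhlhe40 and Bhlhe41, which were not tested. They were chosen for their change on these arrays, so the distance of their intervals from 0 is not a test. Arntl is lower at days 1 and 3, Per3 and Per1 are higher at day 3, and Cry1 and Dbp are lower at day 5.

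The calls over the 8 core clock genes are set beside those over all genes. At day 1, 1 of 8 was called (Arntl, lower), where 10.9% of all genes were called, 6.45% higher and 4.48% lower. At day 3, 3 of 8 were called, 2 higher and 1 lower, against 26.6% of all genes (13.5% higher and 13.1% lower). At day 5, 2 of 8 were called, both lower, against 35.0% of all genes (17.6% lower). From day 1 to day 3, 2 of 8 were called, both higher, where 20.8% of all genes were called (9.2% higher). From day 3 to day 5, 5 of 8 were called, Arntl higher and Per1, Per3, Cry1 and Dbp lower, against 25.3% of all genes, 13.0% higher and 12.2% lower. Over the time course 5 of 8 passed the moderated F test, against 45.6% of all genes. By the arrays alone, without a test, 1 of the 8 had no overlap between day 1 and day 0, 6 between day 3 and day 0 and 2 between day 5 and day 0, where 30.3%, 39.3% and 42.8% of all genes had none. Between day 3 and day 1, 3 of the 8 had no overlap (40.4% of all genes), and between day 5 and day 3, 6 had none (38.9%). The split of all calls by direction moved with the scale. At day 3 against day 0 it was 2690 higher and 2604 lower as deposited, 2848 and 2682 after quantile normalization, and 2180 and 3156 after centring each array on its median. From day 1 to day 3 it was 1834 and 2317 as deposited, 2152 and 2178 after quantile normalization, and 1577 and 2567 after centring. From day 3 to day 5 it was 2601 and 2442 as deposited, with more lower than higher after quantile normalization (2518 and 2823) and more higher than lower after centring (2846 and 2023).

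The difference between the highest and lowest day mean was 1.90 on the log2 scale for Bhlhe41 and 1.84 for Bhlhe40, which were chosen for their change, so no comparison with the clock genes is drawn from it. It was 0.61 for Arntl, 0.56 for Per3, 0.48 for Dbp, 0.36 for Cry1, 0.24 for Per1, 0.15 for Clock, 0.09 for Per2 and 0.06 for Cry2. The SD within days was 0.22 for Bhlhe41 and 0.05 to 0.10 for the other 9, so the ranges of Per2, Cry2 and Clock were less than 2 such SDs.

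By day means, Per3, Per1 and Dbp were highest at day 3, as Bhlhe41 was. Arntl was lowest at day 3, as were Per2, Cry2 and Clock, which passed no test. The share of all genes with their highest or lowest mean at day 3 was not counted. Over the 12 arrays Pearson's r with Bhlhe41 was 0.96 for Per3, 0.85 for Per1, 0.63 for Dbp, 0.39 for Cry1, -0.33 for Cry2, -0.42 for Per2, -0.47 for Clock and -0.81 for Arntl. With Bhlhe40 it was 0.45 for Per3, 0.31 for Per1, 0.02 for Per2, -0.03 for Cry2, -0.19 for Arntl, -0.26 for Clock, -0.35 for Dbp and -0.64 for Cry1, and between Bhlhe40 and Bhlhe41 it was 0.36. These are descriptions, since the arrays form 4 days and share the same RNA for both genes. Ranked by r with Bhlhe41 among the 19937 other genes, Per3 stood at place 13 from the top and Per1 at place 258, and Arntl at place 250 from the bottom. After the day means were taken out, r was 0.64 for Per3, 0.24 for Per1 and 0.55 for Arntl, so the opposition of Arntl to Bhlhe41 lay between the days and was not present among replicates of a day.

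Markers of fibroblasts moved on the same day as Bhlhe41, Per3, Per1 and Arntl. Of 11 measured markers, 8 were lower and 1 was higher at day 3 against day 0, where 13.1% of all genes were lower, and 7 were higher and 1 lower (Thy1) at day 5 against day 3, where 13.0% were higher and 12.2% lower. The mean log2 signal of the 11 was 7.69 to 7.78 at day 0, 7.65 to 7.69 at day 1, 7.16 to 7.19 at day 3 and 7.47 to 7.64 at day 5. Col1a1, a chain of type I collagen, averaged 9.43, 9.24, 8.45 and 9.41 at days 0, 1, 3 and 5, and Prrx1, a mesenchymal homeobox factor, averaged 7.81, 7.61, 6.52 and 6.54 on these days. Lum, the matrix protein lumican, was dim throughout, at 4.58 to 4.79. The part of these cells or genes in the day 3 values of the clock genes was not tested.

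The wider clock list held 36 measured genes that are not members, grouped by role. At day 1, 1 was higher and 2 were lower (8.33%, against 10.9% of all genes), and at day 3, 6 were higher and 3 lower, against 26.6% of all genes called. At day 5, 8 were higher and 11 lower (52.8%, against 35.0%). From day 1 to day 3, 6 of 36 were called (16.7%, against 20.8%), and from day 3 to day 5, 5 were higher and 9 lower (38.9%, against 25.3%). Over the time course 22 of 36 passed (61.1%, against 45.6%). The median log2 change of the 36 was within 0.06 of 0 on every day, as was that of all genes.

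Arntl2, the close relative that can replace Arntl beside Clock, was called higher at day 3 against day 0, where Arntl was called lower, and the difference between them was not tested. Its log2 signal was 7.02, 7.12 and 7.07 at day 0, 7.08, 7.32 and 6.98 at day 1, 7.36, 7.47 and 7.42 at day 3 and 7.61, 7.48 and 7.85 at day 5. The arrays of days 3 and 5 lay above those of days 0 and 1. It rose by 0.58 ± 0.10 (SE) at day 5 against day 0 (adjusted p = 4.0e-04) and by 0.35 at day 3 (adjusted p = 0.018, limma). The call at day 3 was lost without day 0 replicate 1, day 3 replicate 2 or day 3 replicate 3 (adjusted p = 0.062, 0.061 and 0.05).

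In the receptor loop on Arntl, both repressors fell at day 5. Nr1d2 was 8.35, 8.55 and 8.28 at day 5 against 9.15, 8.97 and 9.04 at day 0, a change of -0.66 (adjusted p = 2.5e-05), and Nr1d1 was 7.74, 7.96 and 7.75 against 8.15, 8.31 and 8.20, a change of -0.41 (adjusted p = 0.0023, limma). Neither passed against day 0 at days 1 or 3. Rora, an activator of Arntl, rose by 0.72 at day 3 against day 0 (adjusted p = 0.002) and by 0.43 at day 5 (adjusted p = 0.031). The day 5 call of Rora was lost without day 0 replicate 2, which was low at 6.45 (change 0.26, adjusted p = 0.12), and without day 5 replicate 2 or 3 (0.35 and 0.42, adjusted p = 0.11 and 0.083). Rorb changed by -0.14 at day 3 and -0.13 at day 5 and was not called (adjusted p = 0.23 and 0.24).

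Ciart, a repressor of Clock and Arntl, fell by 0.54 at day 5 (adjusted p = 4.5e-04, limma) after changes of 0.12 at day 1 and -0.10 at day 3 that did not pass (adjusted p = 0.47 and 0.51). Of the relatives of Dbp, Tef, Hlf and the opposing repressor Nfil3 changed by 0.08, -0.21 and 0.21 at day 5, and none was called on any day.

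Among 12 measured kinases, phosphatases and ubiquitin ligases of Per and Cry proteins, Csnk1e changed most at day 1. This casein kinase, which marks Per proteins for destruction, was 10.05, 10.06 and 9.97 at day 1 against 10.59, 10.73 and 10.73 at day 0. It fell by 0.66 ± 0.06 (SE) at day 1 (adjusted p = 2.1e-05), by 0.46 at day 3 and by 0.31 at day 5 (adjusted p = 1.1e-04 and 0.0015, limma). Its relative Csnk1d rose by 0.31 at day 5 (adjusted p = 3.6e-04), as did Gsk3b by 0.34 (adjusted p = 0.0013) and the casein kinase subunit Csnk2a2 by 0.25 (adjusted p = 0.0018). Csnk1d at day 3 was called by a narrow margin (0.15, adjusted p = 0.042), and the call was lost without any 1 of 9 arrays, with adjusted p up to 0.14.

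Of 8 proteins that join or regulate the Per and Cry complexes, none was called at day 1, where 10.9% of all genes were. At day 3, 1 was lower and none higher, where 13.1% of all genes were lower. At day 5, 4 were lower and none was higher, where 17.6% of all genes were lower and 17.4% higher. Wdr5, a histone methyltransferase subunit, changed by -0.37 (adjusted p = 4.3e-04), the Clock-binding repressor Cipc by -0.22 (adjusted p = 0.0093), the RNA-binding protein Sfpq by -0.22 (adjusted p = 0.0092) and the corepressor Sin3a by -0.17 (adjusted p = 0.017, limma). The call of Sin3a was lost without day 0 replicate 1 (change -0.15, adjusted p = 0.062). Of 7 output genes, Klf9 fell by 0.65 at day 5 (adjusted p = 9.0e-06) and the kinase Wee1 rose by 0.29 (adjusted p = 0.0023). Nampt, the enzyme of NAD salvage, rose by 0.32 at day 3 (adjusted p = 7.9e-04) and fell by 0.42 from day 3 to day 5 (adjusted p = 1.3e-04). Noct, which encodes nocturnin, did the reverse, falling by 0.41 at day 3 (adjusted p = 0.0013) and rising by 0.51 from day 3 to day 5 (adjusted p = 3.1e-04, limma).

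**Figure D3:**
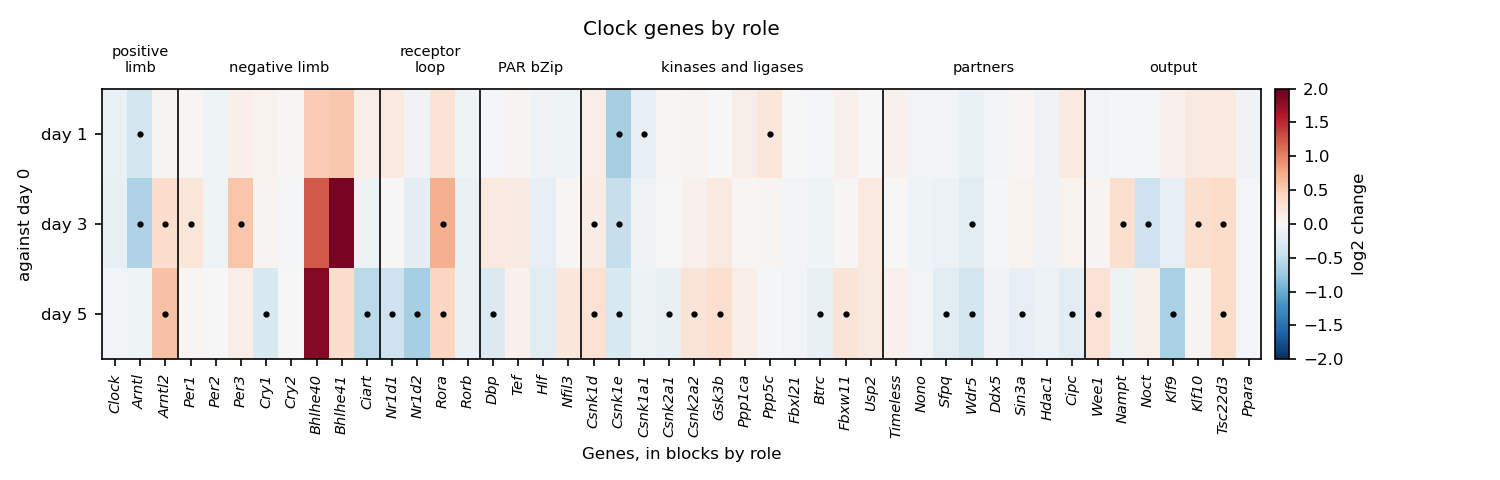
Log2 change (colour, from -2 in blue to 2 in red) of the members and the wider clock genes in blocks by role (x axis) at days 1, 3 and 5 against day 0 (y axis), from means of 3 arrays; a dot marks an adjusted p under 0.05 from limma, and Bhlhe40 and Bhlhe41 were not tested. Outside the Bhlhe pair, Rora at day 3 (0.72) and Csnk1e at day 1 (-0.66), Nr1d2 (-0.66) and Klf9 (-0.65) at day 5 carry the strongest colours.

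Genes of other inputs that are known to act on Bhlhe40 or the Per genes were read from 3 lists. These lists were chosen with earlier results of these data known, so their counts are not an independent test. Hypoxia raises Bhlhe40 and Bhlhe41 in many cells through the hypoxia-inducible factors, and most calls among its targets here were higher ones against day 0. Of 16 measured hypoxia targets, 9 were higher and none lower at day 1, where 6.45% of all genes were higher. At day 3, 12 were higher and none lower (13.5% of all genes higher), with a median log2 change of 0.68. At day 5, 11 were higher and 2 lower, with a median of 0.53, where 17.4% of all genes were higher. From day 3 to day 5, 3 rose and 6 fell, where 13.0% of all genes rose and 12.2% fell. When 1 array was left out at a time, the number called higher was 6 to 10 at day 1, with 6 without day 1 replicate 1, 12 to 13 at day 3 and 11 at day 5.

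Egln1, the oxygen-sensing prolyl hydroxylase, was 9.17, 9.27 and 9.26 at day 0, 9.68, 9.55 and 9.65 at day 1, 10.43, 10.35 and 10.21 at day 3 and 10.54, 10.65 and 10.78 at day 5. Like those of Bhlhe40, its arrays did not overlap between days. Egln1 was named for the smallest F test p of its list, and the share of all genes with such an order was not counted. It rose by 1.42 ± 0.07 (SE) at day 5 against day 0 (adjusted p = 1.7e-08, limma). Ddit4, an inhibitor of mTOR signalling, rose most at day 3 (1.76, adjusted p = 1.3e-07) and fell by 0.46 from day 3 to day 5 (adjusted p = 0.0072). The glucose transporter Slc2a1 rose by 0.78 at day 3 and 0.91 at day 5, and the collagen hydroxylase P4ha1 by 0.67 and 1.05 (adjusted p at most 3.5e-05 for all 4). The pattern was not shared by the whole list. Car9, a hypoxia-induced carbonic anhydrase, changed by -0.07, 0.00 and -0.02 at days 1, 3 and 5 and was never called. Its signal was dim, with a mean of 6.05 at the 25.7th percentile of gene means, so a change could be missed. Pdk1 and Kdm3a fell by 0.55 and 0.52 at day 5 (adjusted p = 6.2e-05 and 3.9e-05, limma). These 3 were named after their values were seen. Oxygen in the cultures was not measured, and the part of hypoxia genes in the Bhlhe values was not tested.

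The immediate early genes, which respond to serum and other signals, were called in both directions on each day. Of 14, 1 was higher and 2 lower at day 1, where 6.45% of all genes were higher and 4.48% lower. At day 3, 3 were higher and 4 lower (13.5% and 13.1% of all genes), and at day 5, 6 were higher and 2 lower (17.4% and 17.6%). Ier3 rose by 1.62 and Jun by 0.43 at day 3 (adjusted p = 2.4e-07 and 0.0017), while the kinase Sik1, a brake on light resetting of the clock in mice, fell by 1.06 and Atf3 by 0.32 (adjusted p = 2.6e-07 and 3.2e-04, limma). Of the 8 glucocorticoid targets, which include Per1, 3 rose and 2 fell at day 3, while at day 5 there were 2 that rose and 4 that fell, beside the same shares of all genes. Fkbp5 and Mt2 fell by 0.54 and 0.76 at day 5 (adjusted p = 6.0e-06 and 2.0e-06), and Sgk1 rose by 0.39 at day 1 and fell by 0.55 at day 5 (adjusted p = 0.0041 and 4.4e-05, limma).

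**Figure D4:**
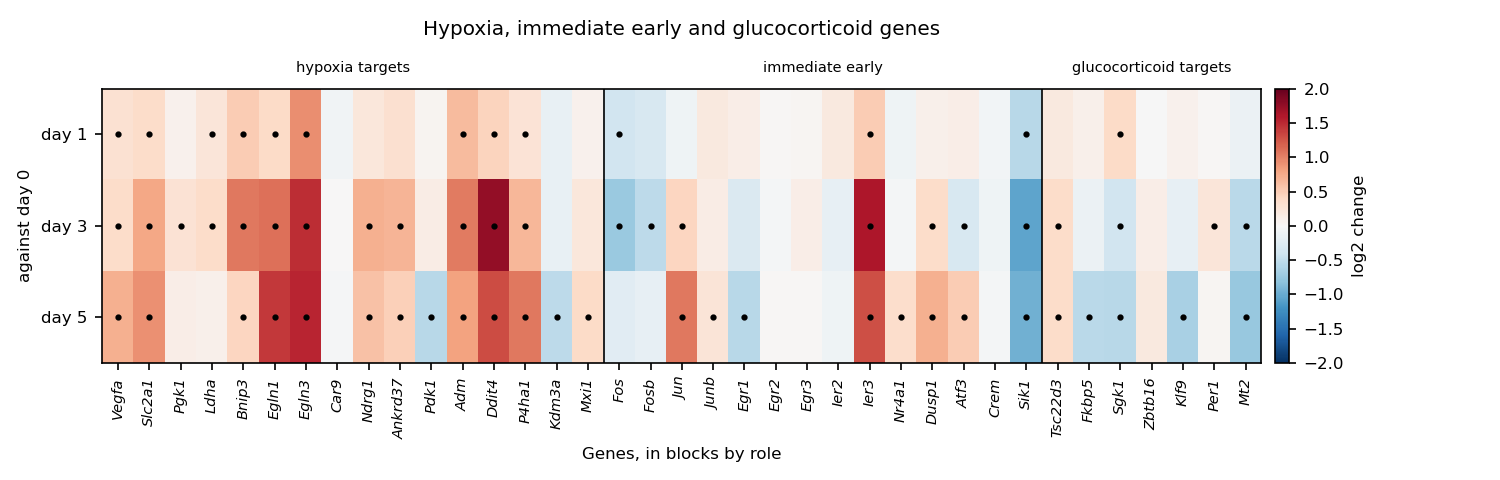
Log2 change (colour, from -2 in blue to 2 in red) of hypoxia targets, immediate early genes and glucocorticoid targets (x axis) at days 1, 3 and 5 against day 0 (y axis), from means of 3 arrays; a dot marks an adjusted p under 0.05 from limma. In the hypoxia block 12 of 16 genes are called higher at day 3, while the other blocks mix both directions.

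The genes whose signal followed Bhlhe40 most closely over the 12 arrays, among 18618 compared, were Mef2d (Pearson's r = 0.991), a muscle and neuron transcription factor, the nuclear receptor Nr6a1 and Egln1 (both 0.989), and the glucose transporter Slc2a3 and Gsap (both 0.987). Their log2 changes at day 5 were 0.79, 1.45, 1.42, 0.56 and 2.14. The most opposed were the meprin subunit Mep1b (-0.991), the phospholipase Plcb4 (-0.991), Agtrap, Pias2 and Hsd17b11, with changes at day 5 from -3.30 (Mep1b) to -0.67 (Pias2). For Bhlhe41 the closest were Tmem30b (r = 0.978), the secreted Wnt antagonist Sfrp2 (0.977), Tmem154, the glycolytic aldolase Aldoc and Syt11. Their changes at day 3 were 0.36, 1.15, 0.89, 1.14 and 1.35, and at day 5 they were 0.08 to 0.26. The most opposed to Bhlhe41 were Col1a2 (-0.971), Ccdc80, Col1a1, the intermediate filament gene Vim and the receptor kinase Axl, of which Col1a2, Col1a1 and Vim are among the fibroblast markers given above. For Arntl the closest were Etfdh of the mitochondrial electron transfer chain (0.980), Hsdl2, Zfp148, the iron-regulated aconitase Aco1 and Brox, with changes at day 3 of -0.35 to -0.53. The most opposed were Foxi3 (-0.957), Kcnh8, the cytokine Mif, Slc9a8 and Dab1, with changes at day 3 of 0.39 to 0.59. These likenesses rest on 4 days and carry no test.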

How the data were processed

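The authors normalized 12 Affymetrix Mouse Gene 1.0 ST arrays (3 at each of days 0, 1, 3 and 5) in Expression Console by the Robust Multichip Average. The deposited values are log2 signals of probe sets. No version is given in the sources used here. Probe sets were named by the platform annotation (21789 with 1 symbol, 1621 with several, 12147 with none), and values of the 1-symbol sets were averaged by gene, for 19938 genes. A RefSeq gene table of GRCm38.p6 held the identifiers of 21698 of the named sets. A few listed genes are not reported here. All genes entered 1 limma 3.58.1 fit in R 4.3.3 (lmFit, eBayes), with a mean for each day, 8 residual and 4.63 prior degrees of freedom, and p-values were adjusted by Benjamini-Hochberg over all genes, at a threshold of 0.05. Tables used Python 3.11.15, pandas 2.3.3 and numpy 2.4.6, and plots matplotlib 3.10.9. The test was checked on simulated data first. The number of arrays limits the precision. A two-sided permutation test of 3 arrays against 3 cannot go below p = 0.1.

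The members and lists were chosen with earlier results of these data known. Lists came from textbook knowledge. Named genes are the members, Esrrb, up to 4 genes per list with the smallest F test p, and the 5 genes with the highest and lowest r for Bhlhe40, Bhlhe41 and Arntl. Markers named beside them (Pou5f1, Lum, Thy1), 3 hypoxia targets and Hif1a fall outside this rule. Alternatives were the replicate number as a block, leaving out each array, quantile normalization, median centring, leaving out genes below the 25th percentile, the brightest probe set, every probe set, trended robust variance, array weights, a fit of 2 days alone and the methods' own tests. Arrays with the same replicate number did not deviate alike from their day means, and the labels do not say whether they were paired. The same alternatives for listed genes and for changes between days without Dox were added after seeing the data. Levels of different genes were not compared.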

Additional observations from a re-analysis of the deposited data

How the results depend on the processing

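Under the alternatives there were 630 changes of single members against day 0. Of these, 606 were counted as the same, 18 changed sign, 4 lost their call and 2 gained one. For the 8 core genes, the same means the same direction and side of the threshold. For the Bhlhe pair, which was not tested, it means a shift smaller than the SD within days. Part of this was fixed in advance, since each member has 1 probe set. Leaving out an array of a day outside the comparison also leaves the change itself as it was. So do the replicate block, leaving out dim genes, trended robust variance and the fit of 2 days. For the Bhlhe pair, all of these could only count as the same. Changes between days without Dox are not in this count. The sign changes were all of changes near 0 that passed no test. Quantile normalization gave -0.0091 for Per1 at day 1 and -0.0281 at day 5, and -0.0197 for Cry2 at day 1 and -0.0557 at day 5. Median centring gave -0.0033 for Per2 and -0.0009 for Cry2 at day 5. Array weights gave -0.0086 for Per2 at day 5 and 0.0431 for Dbp at day 1. Leaving out 1 array each gave -0.0109 to 0.0627 for Per1 at day 1 and -0.0113 to 0.0961 at day 5, -0.0245 to 0.029 for Per2, -0.0225 to 0.0476 for Cry2 and -0.0992 to 0.0033 for Clock at day 5, and -0.1193 to 0.034 for Dbp at day 1. With array weights, Dbp was not called at day 5 (adjusted p = 0.073) and was called at day 3 (0.036).

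Same-numbered arrays did not deviate alike (r of deviations -0.17 to 0.071 over 18 pairs). The replicate number as a block called 1 core gene from day 1 to day 3 in place of 2. Per1 was lost there (adjusted p = 0.064, limma). The block called 1 wider gene at day 1 in place of 3, and 3 from day 1 to day 3 in place of 6. It also lost Per1 from day 3 to day 5 (adjusted p = 0.063, limma). That fall of Per1 was also lost with median centring, with every probe set and with 2 days alone (adjusted p = 0.052, 0.057 and 0.083, limma). The rise of Per1 from day 1 to day 3 was lost with every probe set too (adjusted p = 0.057, limma).

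Of the 8 core genes, 2 were called at day 5 but 1 with array weights. From day 1 to day 3, 2 were called, but 4 without dim genes, 4 with trended robust variance and 1 with every probe set. The methods' one-way test with Bonferroni adjustment and a 2-fold range called 0 core and 0 wider genes over the time course, in place of 5 and 22, since no range of those genes reached 2-fold. The methods' t-test of day 1 called 8 wider genes at its threshold of 0.05 and 2 after Benjamini-Hochberg, and median centring 1, in place of 3. That test called 1 core gene both ways. Leaving out each array in turn, the core counts were 1 to 1, 2 to 3 and 1 to 2 at days 1, 3 and 5, 1 to 3 from day 1 to day 3, 4 to 5 from day 3 to day 5 and 4 to 5 over the time course. The wider counts were 1 to 3, 7 to 10, 16 to 19, 2 to 8, 9 to 14 and 19 to 24 in the same order. The core count of 1 at day 5 came without day 0 replicate 2. The wider count of 9 from day 3 to day 5 came without day 3 replicate 2 and without day 5 replicate 3. With 3 arrays a day, changes under 0.5 on the log2 scale can be missed.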

Other observations

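Other repressors of the Hes, Hey and Id families, helix-loop-helix relatives of Bhlhe40 and Bhlhe41, moved gene by gene. Of 12 measured, 4 rose and 1 fell at day 3 (13.5% and 13.1% of all genes), and at day 5 6 rose and none fell, where 17.4% of all genes were higher. Hes6 rose at day 1 (0.67, adjusted p = 2.8e-05) and day 3 (0.58, adjusted p = 2.2e-05) but was not called at day 5 (0.10, adjusted p = 0.28), and it fell by 0.49 from day 3 to day 5 (adjusted p = 1.3e-04, limma). Id2, an inhibitor of helix-loop-helix factors, rose on all 3 days (0.50, 0.68 and 0.88, adjusted p = 0.0043, 1.3e-04 and 8.4e-06). Hes1 fell at day 1 (-0.29, adjusted p = 0.024) and rose at day 5 (0.46, adjusted p = 2.9e-04), and Id4 fell at day 3 (-0.30, adjusted p = 0.025) and rose at day 5 (0.82, adjusted p = 9.2e-06, limma). The day 1 call of Hes1 was lost without day 0 replicate 2 or 3 or day 1 replicate 1 or 3 (adjusted p = 0.077 to 0.093), and the day 3 call of Id4 without day 0 replicate 1 or 2 or day 3 replicate 1 or 2 (adjusted p = 0.055 to 0.082).

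Among 14 other bHLH-PAS genes, the family of Clock and Arntl, 2 were higher and none lower at day 1, where 10.9% of all genes were called. At day 3, 3 were higher and 3 lower, where 26.6% of all genes were called. At day 5, 4 were higher and 4 lower, where 35.0% of all genes were called. Epas1, which encodes the alpha subunit of hypoxia-inducible factor 2, rose by 0.55, 0.71 and 2.17 at days 1, 3 and 5 against day 0 (adjusted p = 0.002, 7.6e-05 and 3.5e-09, limma). Ahr, the aryl hydrocarbon receptor, rose by 0.40, 0.71 and 0.83 (adjusted p = 0.0022, 5.1e-06 and 6.7e-07), and Npas3 by 0.61 at day 5 (adjusted p = 6.6e-05). The coactivator Ncoa3 fell by 0.55 at day 3 and by 0.39 at day 5 (adjusted p = 1.8e-05 and 1.7e-04, limma). Hif1a, which was named after its values were seen, was lower at day 3 (-0.26, adjusted p = 0.015, but 0.062 without day 0 replicate 2 and 0.052 without day 3 replicate 3) and was not called at day 5 (0.04, adjusted p = 0.76). What these changes have to do with the Bhlhe genes was not tested.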
